A study of Mus musculus with 3 samples.

Results

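NKX2-5 occupancy was examined at 10 genes of the Notch pathway in the embryonic mouse heart. The genes are the receptors Notch1, Notch2, Notch3 and Notch4, the ligands Jag1, Jag2 and Dll4, and the HEY repressors Hey1, Hey2 and Heyl, out of 22350 annotated protein-coding genes on the 20 chromosomes that carried peaks. The members were chosen by name, and every peak whose midpoint lay within 100 kb of one of the annotated gene bodies was taken. Chromatin was immunoprecipitated with an NKX2-5 antibody from wild-type hearts of Parkes strain embryos at E11.5 in 2 libraries, S1 and S4. There was 1 Input library of genomic DNA from the same strain, stage and tissue, which was not analysed here. The labels do not say whether S1 and S4 came from separate hearts, and there was 1 condition, so no groups could be compared. The study mapped NKX2-5 binding to place the factor among the regulators of heart development.

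NKX2-5 is a homeodomain transcription factor needed in cardiac muscle precursors and in the growing chambers. Notch receptors are membrane proteins that are cut when a ligand on a neighbouring cell, of the Jagged or Delta-like kind, binds them. The freed intracellular part joins the DNA-binding protein RBPJ in the nucleus and switches on genes such as those of the HEY family, which encode basic helix-loop-helix repressors. In the heart the pathway is known for its part in the endocardium, in trabeculation and in the cushions that form the valves, while Hey1 and Hey2 help to keep atrial and ventricular myocardium apart from the atrioventricular canal.

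S1 held 4418 peaks and S4 held 5441. Each peak carries a score, read from its values as the caller's p-value on a negative log10 scale multiplied by 10, and the lowest score was 140 in each list. The depth of the libraries is unknown, because no read numbers were used here, and scores cannot be scaled between them. A peak was counted as shared when it overlapped a peak of the other library by at least 1 bp, and overlapping peaks were merged into 1 shared region, of which there were 2546. The lists carry no expression values, so the tissue could not be checked against marker genes.

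In the 10 windows, 7 peaks of S1 and 5 peaks of S4 were found, and they made 2 shared regions, one at Jag2 and one at Hey1. The sequences below are the 300 bases around the middle of these regions, shown because they are the places where both libraries found NKX2-5. They are followed by the S4 peak at the start of Hey2, the S4 peak at the start of Hey1 and the S1 peak inside Notch2, which are the peaks found in one library only that lay in a member gene. The sequence of the Hey1 start is shorter because untranslated exon was left out. All are the plus strand of the mm9 genome, and capitals mark exact matches on either strand to the NKX2-5 cores AAGTG and TNAAGTG, the MEIS1 core TGACA and the spaced pair GTGNTGACA. On the minus strand AAGTG reads CACTT and TGACA reads TGTCA.
Jag2 intron, shared, chr12:114159756-114160055: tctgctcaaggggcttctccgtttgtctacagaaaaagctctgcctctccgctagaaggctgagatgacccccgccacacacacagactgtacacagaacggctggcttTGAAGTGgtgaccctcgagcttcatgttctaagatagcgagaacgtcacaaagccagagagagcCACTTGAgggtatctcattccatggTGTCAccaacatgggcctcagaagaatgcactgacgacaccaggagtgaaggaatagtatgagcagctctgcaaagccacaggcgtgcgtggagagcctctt
Hey1 upstream, shared, chr3:8744824-8745123: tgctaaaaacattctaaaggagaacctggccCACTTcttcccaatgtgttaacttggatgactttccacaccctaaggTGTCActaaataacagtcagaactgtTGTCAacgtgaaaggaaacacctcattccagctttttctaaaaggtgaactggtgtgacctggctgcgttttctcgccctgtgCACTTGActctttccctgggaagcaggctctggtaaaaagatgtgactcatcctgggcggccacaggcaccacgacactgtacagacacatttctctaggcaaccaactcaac
Hey2 start, S4 only, chr10:30562028-30562327: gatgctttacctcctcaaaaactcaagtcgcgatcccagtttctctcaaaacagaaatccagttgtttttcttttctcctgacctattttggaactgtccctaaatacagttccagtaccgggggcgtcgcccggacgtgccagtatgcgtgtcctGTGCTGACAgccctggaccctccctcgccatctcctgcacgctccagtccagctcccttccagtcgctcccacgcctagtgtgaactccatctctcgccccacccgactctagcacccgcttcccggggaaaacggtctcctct
Hey1 start, S4 only, chr3:8666608-8666870: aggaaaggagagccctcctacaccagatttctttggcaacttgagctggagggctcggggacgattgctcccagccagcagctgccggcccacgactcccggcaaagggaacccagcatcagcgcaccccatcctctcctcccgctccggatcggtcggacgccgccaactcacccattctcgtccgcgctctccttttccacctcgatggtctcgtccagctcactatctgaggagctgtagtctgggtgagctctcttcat
Notch2 intron, S1 only, chr3:97850222-97850521: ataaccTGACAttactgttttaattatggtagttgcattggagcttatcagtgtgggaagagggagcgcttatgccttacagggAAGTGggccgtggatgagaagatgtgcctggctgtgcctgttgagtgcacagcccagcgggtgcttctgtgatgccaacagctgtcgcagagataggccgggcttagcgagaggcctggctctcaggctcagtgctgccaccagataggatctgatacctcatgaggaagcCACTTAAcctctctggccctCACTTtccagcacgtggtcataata

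**Figure D1:**
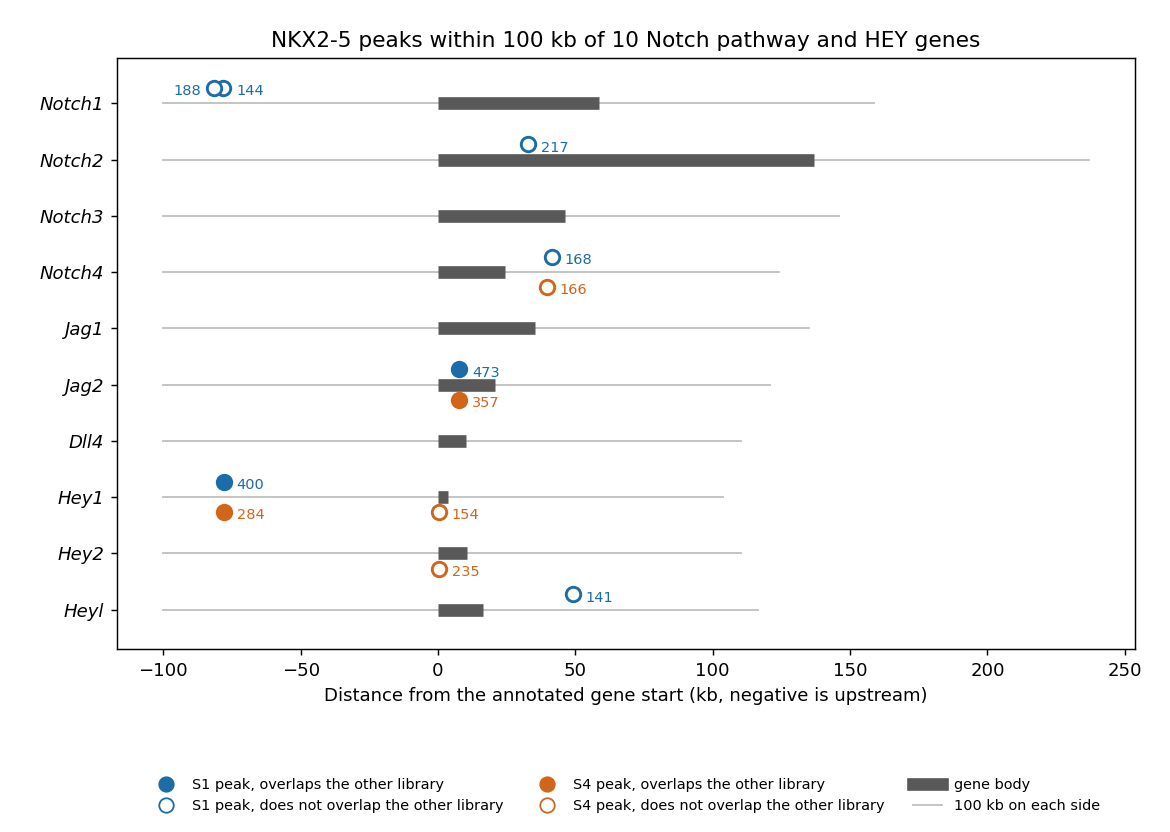
Each row is 1 of the 10 genes with its body (dark bar) and 100 kb on each side (thin line), drawn in kb from the annotated start with upstream to the left. Circles are peaks of S1 (blue, above) and S4 (orange, below) with their scores, filled where the peak overlapped the other library, which was the case at Jag2 and upstream of Hey1 and nowhere else in these windows.

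Both libraries had a peak in Jag2 (chr12:114146801-114167706, minus strand), which encodes a ligand of the Serrate type. The S1 peak at chr12:114159476-114160343 was 868 bp wide and scored 473, and the S4 peak at chr12:114159610-114160202 was 593 bp wide and scored 357. Their mean score was 415 ± 81.8 (SD, n = 2 libraries). The S4 peak lay wholly within the S1 peak and covered 68.3% of it, and the midpoints were 3 bp apart. The region lay 7.80 kb downstream of the annotated start, in intron 3 of the 26-exon transcript, an intron of 1.52 kb, and Jag2 was the protein-coding gene with the nearest start. The S1 peak ranked 591 of 4418 in its list and the S4 peak 1262 of 5441. By the lower score of both libraries the region was ahead of 72.7% of the shared regions.

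At Hey1 (chr3:8663362-8667039, minus strand), a repressor induced by Notch signalling, the shared region was distal. The S1 peak at chr3:8744642-8745449 was 808 bp wide and scored 399.8, and the S4 peak at chr3:8744609-8745307 was 699 bp wide and scored 284. The mean score was 342 ± 81.7 (SD, n = 2 libraries). The stretch covered by both was 666 bp long, which is 82.4% of the S1 peak and 95.3% of the S4 peak. It lay in intergenic sequence 77.9 kb upstream of Hey1, and no other protein-coding gene had a start within 100 kb of Hey1 or nearer to the region. It was ahead of 60.5% of the shared regions by its lower score.

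At both regions S1 had the higher score and the wider peak, with S1 to S4 ratios of the score of 1.32 at Jag2 and 1.41 at Hey1. Across all 2546 shared regions S1 had the higher score in 39.2% and the wider peak in 20.7%, and the log2 of the S4 score over the S1 score had a median of 0.16 (quartiles -0.26 and 0.59). The values of -0.40 at Jag2 and -0.49 at Hey1 were below the lower quartile and less than 1 SD (0.67 over the shared regions) from the median.

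Hey1 and Hey2 (chr10:30552165-30562607, minus strand) each had a peak over their own start in S4 and not in S1. The Hey2 peak at chr10:30561743-30562614 was 872 bp wide and scored 235, and its midpoint lay 429 bp inside the gene, in intron 1. The Hey1 peak at chr3:8666422-8667095 was 674 bp wide and scored 154, with its midpoint 281 bp inside the gene, also in intron 1. Almost all of both peaks lay downstream of the start, since 56 bp of the Hey1 peak and 7 bp of the Hey2 peak lay upstream of it. The score at Hey2 was ahead of 53.7% of the S4 list, while the score at Hey1 was ahead of 14.3%. The nearest S1 peak lay 77.5 kb from the Hey1 peak and 192 kb from the Hey2 peak. A start-site peak was thus seen at these genes in 1 of 2 libraries, and S4 was also the library with the longer list.

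Heyl (chr4:122910799-122927118, plus strand), the third HEY gene, had 1 peak of S1 in its window, at chr4:122959659-122960243 with a score of 141, ahead of 1.52% of the list. It lay 32.8 kb downstream of Heyl and 117 bp upstream of the start of Pabpc4, a poly(A)-binding protein gene. No S4 peak lay in the window of Heyl.

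Of the receptors, 3 of 4 had a peak in S1, 1 of 4 had a peak in S4 and none had a shared region. Over all protein-coding genes the shares within 100 kb were 38.4%, 44.7% and 24.3%. The Clopper-Pearson interval for the share of receptors with a shared region was 0 to 60.2%, which includes the 24.3%. With 4 genes, the lack of a shared region cannot be told from the share among genes in general. Notch2 (chr3:97817461-97954290, plus strand) was the receptor with a peak inside the gene, in S1 at chr3:97850028-97850717, which was 690 bp wide and scored 217. This peak lay 32.9 kb downstream of the start in intron 1, which is 34.0 kb long, and was ahead of 51.9% of the S1 list. The nearest S4 peak lay 145 kb from it.

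The other peaks near receptors were closer to the starts of other genes. In the window of Notch1 (chr2:26313423-26372183, minus strand) there were 2 peaks of S1, at chr2:26450044-26450554 (score 144) and chr2:26453316-26454009 (score 188), 78.1 kb and 81.5 kb upstream of Notch1 and over an exon and an intron of Agpat2, an acyltransferase gene. The starts nearest to them were those of Egfl7 at 2.63 kb, which encodes a protein secreted by endothelium, and of Agpat2 at 5.57 kb. Downstream of Notch4 (chr17:34701213-34725448, plus strand) the libraries had 1 peak each, 1377 bp apart and over different starts. The S1 peak at chr17:34742461-34742998 (score 168) lay 77 bp upstream of Agpat1, and the S4 peak at chr17:34740339-34741083 (score 166) lay 76 bp upstream of Rnf5, a ubiquitin ligase gene. Their distances from the body of Notch4 were 17.3 kb and 15.3 kb. The Notch4 window is crowded, with the starts of 14 other protein-coding genes.

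No peak of either library lay within 100 kb of Notch3 (chr17:32257765-32303825, minus strand), Jag1 (chr2:136907192-136942380, minus strand) or Dll4 (chr2:119151520-119161698, plus strand). Dll4, the Delta-like ligand of arterial and endocardial cells, had its nearest S4 peak 258 kb and its nearest S1 peak 1068 kb away, the latter the longest distance to an S1 peak among the 10 genes. At Notch3 the nearest peaks were 184 kb away in S1 and 354 kb in S4. At Jag1, a ligand needed in the outflow tract, they were 193 kb away in S1 and 306 kb in S4. These distances say that no region passed the caller's threshold in the windows, not that NKX2-5 was absent there, since the depth is unknown.

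Counted by gene, 6 of 10 members had an S1 peak (60%), where 38.4% of all protein-coding genes had one within 100 kb. An S4 peak lay near 4 of 10 (40%), against 44.7% of all genes, and 7 of 10 had a peak of either library (70%), against 53%. A shared region lay near 2 of 10 (20%, exact 95% Clopper-Pearson interval 2.52 to 55.6), against 24.3% of all genes, so the share of members was close to that of genes in general. The windows of the members were of common size, with a median of 223 kb against 215 kb over all genes, and no pair of them overlapped. The 2 shared regions in 2.36 Mb of windows came to 0.847 per Mb, where the windows of all protein-coding genes held 1.41 per Mb and the 20 chromosomes 0.965 per Mb. The count depends on the limit: within 50 kb Jag2 alone of the 10 genes kept a shared region, and within 200 kb 6 members had one, against 15.7% and 37.7% of all genes. A peak of 1 library sufficed at 4 members with S4 alone and at 6 with S1 alone.

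**Figure D2:**
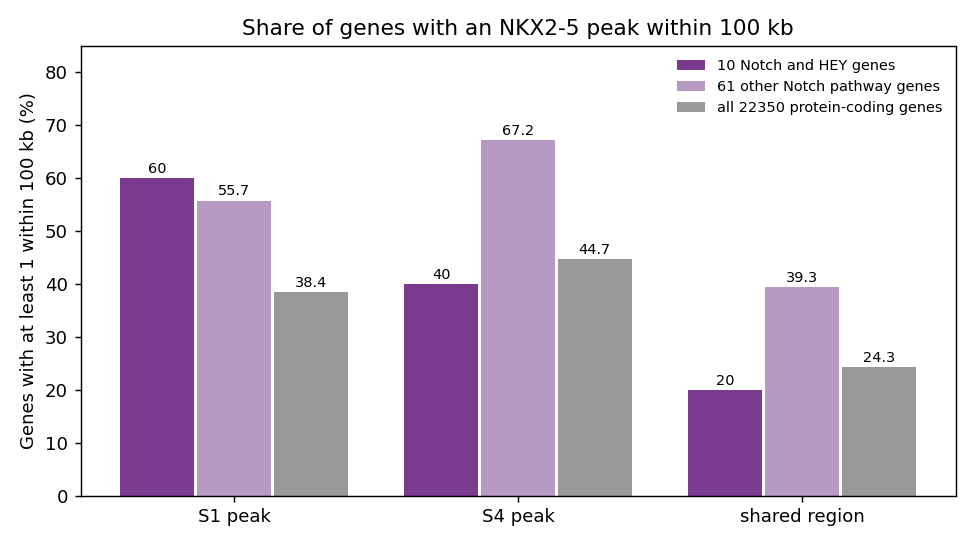
Bars give the percentage of genes with at least 1 S1 peak, S4 peak or shared region within 100 kb of the gene body, for the 10 members (dark), 61 other Notch pathway genes (light) and all 22350 protein-coding genes (grey). The members stood at 60%, 40% and 20% and all genes at 38.4%, 44.7% and 24.3%.

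Within 100 kb, 8 of the 12 peaks near the members were found in one library only, a share that depended on the limits used. Of the S1 peaks, 2 of 7 overlapped an S4 peak (28.6%, interval 3.67 to 71.0), where 58.9% of the whole S1 list did. Of the S4 peaks, 2 of 5 overlapped an S1 peak (40%, interval 5.27 to 85.3), where 47% of the whole list did. Both background shares lay inside these wide intervals, which cover counting error only. When peaks scoring under 200 were left out, 3 remained in each library, and 66.7% of the S1 and 66.7% of the S4 peaks were shared. In the whole lists, 28.0% of shared and 72.4% of other S1 peaks scored under 200, and 20.4% and 60.4% in S4. The whole-list shares therefore also rise at this limit, and 58.9% and 47% are not their values there. Within 200 kb the shares were 50% and 58.3%, and where the member had the nearest start they were 66.7% and 50%. The 4 shared peaks had scores from 284 to 473, and the 8 others had scores from 141 to 235. In the whole lists the medians were 279 for shared and 171 for other peaks of S1, and 315 and 183 in S4. Of the 8 peaks without a partner, 5 lay within 1 kb of a protein-coding start, and for 5 of the 8 the gene with the nearest start was not the member. These counts only describe the 8 peaks, since the same shares of the whole lists are not given here.

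**Figure D3:**
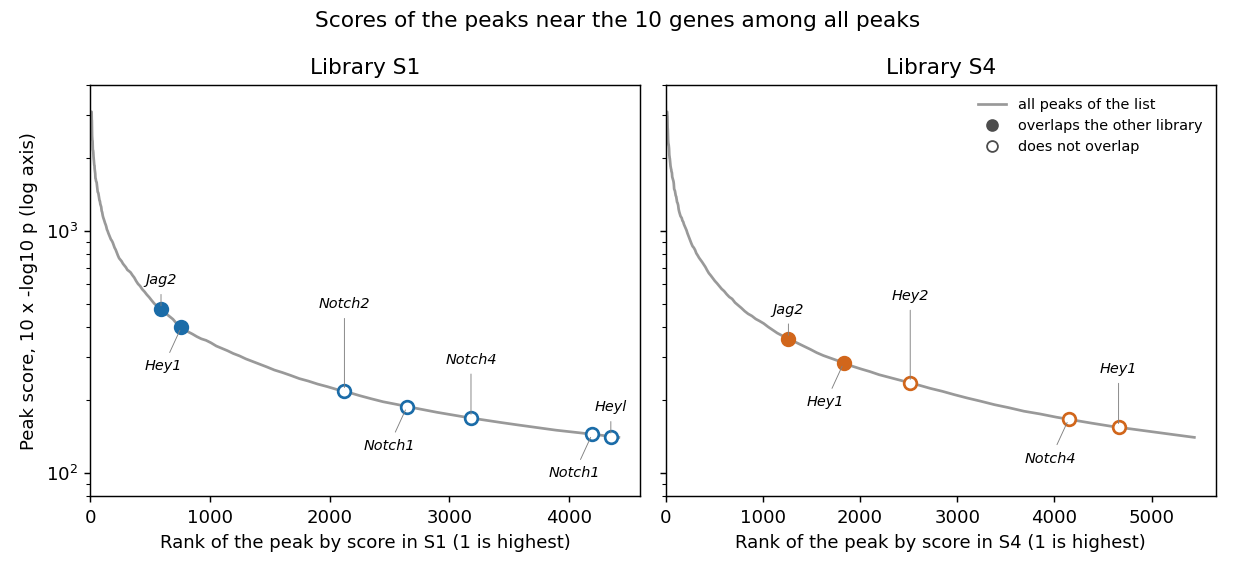
Each panel plots the score of all peaks of a library against their rank (grey line, log axis for the score), with the peaks near the members as circles, filled where they overlapped the other library. The filled circles at Jag2 and Hey1 lie above the open ones in each library.

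Within 100 bp on each side of the midpoint, both shared regions held the core AAGTG and its longer form TNAAGTG. Jag2 had TNAAGTG on both strands, centred 38 bp and 26 bp from the midpoint, and Hey1 had it once, 40 bp from the midpoint. Among all shared regions 64.0% held AAGTG and 32.3% held TNAAGTG, which contains the former. Of the 8 peaks without a partner, 2 held AAGTG, those inside Notch2 and at the start of Agpat1, where 60.1% of all S1 peaks and 57.8% of all S4 peaks did. None of the 8 held TNAAGTG in this window, against 28.9% of all S1 peaks and 26.6% of all S4 peaks. The MEIS1 core TGACA was in both shared regions, with 2 copies at Hey1, against 64.6% of all shared regions. It was in 5 of the 8 other peaks, against 57.9% of all S1 and 56.1% of all S4 peaks. Neither shared region held AAGTG wholly within 25 bp of the midpoint.

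The S4 peak at the start of Hey2 was the one window of the 10 with the spaced pair GTGNTGACA, read as GTGCTGACA and centred 10 bp from the midpoint. This pair was present in 6.65% of all S4 peaks and 9.54% of all shared regions. The overlap of both cores, AAGTGACA, was in none of the 10 windows and in 2.36% of all shared regions. The core TGGGAA of RBPJ, the DNA-binding protein of the pathway itself, was in the Hey1 upstream region and the Notch2 intron peak (2 of 10 windows, against 16.85% of all shared regions). The T-box core AGGTGT was in 3 of 10 windows, with 2 copies in the Hey1 upstream region, against 13.7%. The E-box CACGTG, which HEY proteins bind, and the GATA core AGATAA were in none of the 10, against 3.97% and 19.1%. Of the 10 windows, 8 were of peaks found in one library only. Over all S1 peaks the shares were 17.9% for TGGGAA, 13.4% for AGGTGT, 4.01% for CACGTG and 16.3% for AGATAA. Over all S4 peaks they were 18.7%, 12.2%, 4.01% and 16.5%. All motifs here are exact matches of short words and describe the windows.

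Base composition differed between the windows. The Jag2 and Hey1 shared regions were 52.7% and 48.3% G and C, near the median of 49.8% over all shared regions (quartiles 45.8% and 53.7%). Most start-site windows were richer than these regions, at 73.6% near Heyl, 71.1% at Agpat1, 65.2% at Hey1 and 56.2% at Hey2, while that at Rnf5 was 49.8%. Away from a start, the window in the Notch2 intron was 59.2%, above that at the Hey2 start. Those upstream of Notch1 were 53.7% and 50.7%. Whether base composition had a part in which peaks were shared was not tested.

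Beyond 100 kb, Hey2 and Jag1 were themselves the genes with the nearest start to a shared region. These regions fell outside the rule and were chosen after their values were seen. The Hey2 region lay 192 kb upstream, at chr10:30754364-30755050 in S1 (score 292) and chr10:30754228-30755216 in S4 (score 527), with a mean score of 409 ± 166 (SD, n = 2 libraries). The Jag1 region lay 306 kb upstream, at chr2:137248259-137249134 in S1 (score 404) and chr2:137248096-137249160 in S4 (score 573), with a mean score of 489 ± 120.0 (SD, n = 2 libraries). Here S4 had the higher score and the wider peak, unlike at Jag2 and at Hey1. Each held TNAAGTG and TGACA within 100 bp of the midpoint, as did the regions at Jag2 and Hey1, against 32.3% and 64.6% of all shared regions. Motifs of the other shared regions beyond 100 kb are not given here. The 300 bases around the midpoints of the Hey2 and Jag1 regions are given with the same capitals for comparison with the sequences of Jag2 and Hey1.
Hey2 upstream, shared, chr10:30754557-30754856: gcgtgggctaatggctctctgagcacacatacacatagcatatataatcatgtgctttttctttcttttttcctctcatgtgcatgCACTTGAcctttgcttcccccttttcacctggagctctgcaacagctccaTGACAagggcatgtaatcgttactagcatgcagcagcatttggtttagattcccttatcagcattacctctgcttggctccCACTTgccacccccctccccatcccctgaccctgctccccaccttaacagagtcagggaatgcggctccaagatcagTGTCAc
Jag1 upstream, shared, chr2:137248546-137248845: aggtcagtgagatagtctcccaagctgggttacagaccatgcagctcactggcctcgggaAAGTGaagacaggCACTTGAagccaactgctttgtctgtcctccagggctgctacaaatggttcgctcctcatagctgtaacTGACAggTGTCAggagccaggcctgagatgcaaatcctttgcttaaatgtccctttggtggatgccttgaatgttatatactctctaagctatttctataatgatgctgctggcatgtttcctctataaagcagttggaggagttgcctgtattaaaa

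**Figure D4:**
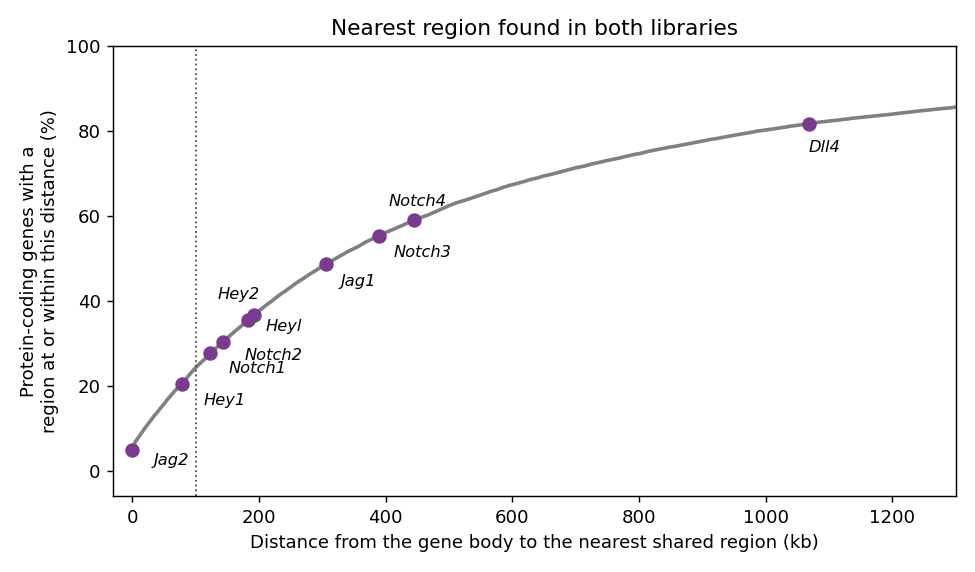
The grey line gives the percentage of all protein-coding genes with a shared region at or within each distance (kb) of the gene body, the points place the 10 members on it and the dotted line marks 100 kb. Jag2 and Hey1 lie left of the dotted line, and Dll4 lies farthest right, at 1068 kb, a distance within which 81.7% of all genes had a shared region.

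The nearest shared region lay at a median of 187 kb from the members and 322 kb from all protein-coding genes. From Notch1 it lay 123 kb away, near Fam69b, and from Notch2 144 kb away, in an intron of Pde4dip. For Heyl it lay 183 kb upstream in an intron of Trit1, and for Notch3 and Notch4 it was 389.8 kb and 445 kb away. The peak just inside the limit of 100 kb was the S1 peak 81.5 kb from Notch1, and the one just outside was an S4 peak 112 kb from Notch2, at the start of Sec22b.

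Among 61 other genes of the pathway, 34 had an S1 peak within 100 kb (55.7%, against 38.4% of all genes). An S4 peak lay near 41 (67.2%, against 44.7%), and a shared region near 24 (39.3%, interval 27.1 to 52.7, against 24.3%). The interval covers counting error only, and the difference from all genes was not tested. These 61 genes were chosen with earlier results of these data known. Their windows were somewhat longer, with a median of 227 kb, and 42 of 61 were above the median of all genes, a difference whose part in the count was not tested. For 11 of the 24 the region with the highest lower score had the listed gene as its nearest start. When a shared region was counted only for the gene with the nearest start, 13 of the 61 genes kept one, against 8.77% of all genes. Of the corepressors, the longest list, 6 of 12 had a shared region (interval 21.1 to 78.9), among them Tle1, Tle3, Tle4, Ncor1 and Spen. The highest-scoring regions counted for Tle3, Ncor1 and Spen were nearer to the starts of Gm10655, Ubb and Hspb7. In the nuclear complex and its coactivators 4 of 9 had a shared region, Rbpj, Maml1, Maml3 and Crebbp, and that of Maml1 was nearer to the start of Hnrnph1. The ligand-processing ubiquitin ligases Mib1, Neurl1a and Neurl1b made 3 of 4. The other HES family genes Hes6, Hes7 and Helt made 3 of 7, and none of their highest-scoring regions had the listed gene as its nearest start, those starts being of Per2, Gucy2e and Slc25a4. The modulators of receptor turnover Fbxw7, Numbl and Dtx1 made 3 of 9, with Snrpa and 1110008J03Rik as the genes of nearest start for Numbl and Dtx1. Furin and Aph1a, of receptor cleavage, made 2 of 10, and Poglut1, a receptor glycosyltransferase, made 1 of 5. The highest-scoring regions of Aph1a and Poglut1 were nearer to the starts of Plekho1 and Tmem39a. The ligands Dll3 and Dlk2 made 2 of 5, with Zfp36 and Polr1c as the genes of nearest start.

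The highest-scoring of these regions lay at genes of the TLE family, which encode Groucho corepressors that HES proteins recruit. Near Tle3 the scores were 3095 in S1 and 2559 in S4, at chr9:61184765-61185693 in intergenic sequence, 34.96 kb upstream of Tle3 and 34.8 kb from the start of Gm10655. In an intron of Tle1 they were 2019.9 and 1859.8, at chr4:71854098-71854761, 5.70 kb downstream of a start. Upstream of Rbpj, by 35.5 kb, both libraries had a peak in intergenic sequence at chr5:53911108-53911835, with scores of 655 and 685, and Rbpj had the nearest start. The regions counted for Hes7 (804 and 860.1, at chr11:69034428-69035062) and Dlk2 (733 and 753, at chr17:46376472-46377108) lay in Gucy2e and Xpo5, closer to the starts of other genes. The scores of these 5 regions were higher in both libraries than those of the Jag2 region (473 and 357). They were picked for the highest lower score among the 24 genes, so this follows largely from the choice. Beyond these, the highest-scoring regions of Neurl1a, Mib1, Maml3 and Ncor1 also scored higher than Jag2 in both libraries. Some others, such as those of Spen and Tle4, scored higher than Jag2 in S4 and lower in S1. Further regions scored lower than Jag2 in both libraries, down to that of Crebbp (145 in S1 and 322 in S4).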

How the data were processed

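NKX2-5 ChIP-seq of E11.5 mouse hearts was analysed from 1 peak list per ChIP library. According to the study's methods and the submitters' processing notes, a Genome Analyzer IIx was used for sequencing, BOWTIE for alignment (mm9) and MACS 1.4 for peak calling, with 1 list for each library. The version of BOWTIE, the settings, and whether the Input served as control are not given in the sources used here. The score deposited by the authors was read from its values as the caller's p-value on a negative log10 scale multiplied by 10, and the deposited start and end are in bp. Regions scoring under 140 are absent from the lists, so a weaker site counts as no peak.

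Genes came from GENCODE M1 on NCBIM37, which is mm9, and no peak (0) ran past a chromosome end. Positions are counted from 1. A promoter is within 1 kb of a protein-coding transcript start. Motifs were searched exactly, on both strands, in 201 bp around midpoints, since summits were not used here. Intervals are Clopper-Pearson at 95%. Overlaps gave the same counts in bedtools 2.31.1, and the procedure was tested on simulated data. No test across genes was made. The members and lists were chosen with earlier results of these data known. All 10 members are named, and of the other pathway genes those with a shared region, except 1 that is not reported here, with values for the 5 with the highest lower score. Alternatives were windows of 50 kb and 200 kb or from a transcript start, overlaps of 50% or midpoints within 150 bp, a score of at least 200, the nearest start, merging within 1 kb, genes of any type, each library alone, and motif windows of 25 bp or the whole stretch. Python 3.11.15, numpy 2.4.6, pandas 2.3.3, scipy 1.17.1, pysam 0.24.0 and matplotlib 3.10.9 were used.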

Additional observations from a re-analysis of the deposited data

How the results depend on the processing

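Of 64 alternative values, 16 moved the result and 48 did not, where a count moved when it changed by over 1.5 times, a share when it left the counting interval of the reported share, and the log2 ratio when it changed by 1 SD of the 2 pairs or more. The intervals are wide, so shares counted as not moved ranged from 25% to 66.7% for S1 peaks (28.6% as reported) and from 25% to 66.7% for S4 peaks (40% as reported). The count of 24 other pathway genes became 16 within 50 kb, 17 with a score of at least 200 and 18 with midpoints within 150 bp. Within 50 kb, 1 member had a shared region, with 4 S1 peaks and 1 shared region in all. Within 200 kb there were 6 members with 7 shared regions, 14 S1 and 12 S4 peaks, and the mean log2 ratio of S4 to S1 over the pairs, -0.45, became -0.016. More peaks follow from a wider window, and the cause of the change in ratio was not tested. A score of at least 200 left 3 S1 and 3 S4 peaks. Counting a peak only for the gene with the nearest start left 3 S1 peaks and 13 other pathway genes. Each library alone gave from 4 to 6 members and from 34 to 41 other pathway genes with a peak. Within 25 bp of the midpoint 0% of the shared regions held AAGTG, against 100% within 100 bp. Jag2 and Hey1 were the 2 members with a shared region under each change of overlap, score, start, merging and nearest gene. With so few peaks, shares cannot be told from those of the whole lists, and the unknown depth limits what an absent peak shows. No paired analysis was possible because there was 1 group of ChIP libraries.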

Other observations

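Further peaks lay between 100 kb and 200 kb from the members. A region shared by both libraries lay 188 kb upstream of Hey1 in an intron of Mrps28, where S1 scored 344 and S4 scored 283, farther out than the one at 77.9 kb. The S1 list alone had a peak 193 kb upstream of Jag1, with a score of 242, in intergenic sequence between Jag1 and the shared region at 306 kb, and Jag1 was the gene with the nearest start. Near Jag2 the S4 list had 1 more peak, at the start of Tex22, 145 kb away, with a score of 142. The S1 peak nearest to Notch3 lay at the start of Akap8l, with a score of 141.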
